A study of Rattus norvegicus with 18 samples.

Results

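The genes described here encode innate immune sensors, the ligands and receptors of the tumour necrosis factor (TNF) family, and the proteins that carry their signals to the transcription factor NF-kB. Members were chosen by name alone from a table of read counts. A symbol counted if it was Tlr, Nlrp, Casp, Traf or Nfkb followed by a digit, if it began with Tnfrsf, Tnfsf or Nfkbi, or if it was Tnf, Myd88, Pycard, Rela, Ikbkb, Ikbkg, Chuk, Ripk1, Ripk3 or Socs3. The count table lists 17455 symbols and 85 of them matched, 68 of these had 10 or more counts in at least 3 libraries, and 67 were tested. Relb and Tnfaip3 also belong to the rule, but neither was among the 85 symbols that matched. The animals were Sprague-Dawley rats, adult and male, weighing about 170 to 280 g, and RNA came from the whole left hippocampus 24 hours after the last seizure. In the kainic acid (KA) model, electrode implantation was followed by rising systemic injections of kainic acid, a glutamate receptor agonist, until status epilepticus. In the kindling (KI) model, an implanted hippocampal electrode delivered repeated stimulation every day until the animal was fully kindled. Each model had its own shams and a group labelled 3 Class V, giving 4 groups. There were 7 libraries of KA sham and 3 of KA 3 Class V in the first model, and 4 libraries each of KI sham and KI 3 Class V in the other. The labels explain neither "3 Class V" nor what the shams received. Class V is the usual name for the strongest convulsive seizure on the Racine scale.

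Toll-like receptors recognise microbial molecules and molecules released by injured cells, and most of them signal through the adaptor MyD88. Inflammasomes are assembled from a sensor such as NLRP3, the adaptor ASC (gene Pycard) and caspase-1, which then matures interleukin-1 beta and interleukin-18. TNF acts on TNFR1 (Tnfrsf1a) and TNFR2 (Tnfrsf1b), which recruit TRAF adaptors and RIP kinases and activate the IkB kinase complex. That kinase marks the IkB inhibitors for destruction and so frees NF-kB, which in turn switches on genes for its own inhibitors. In the brain, RNA for Toll-like receptors and inflammasome proteins is found mostly in microglia, while neurons and astrocytes also respond to TNF.

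NF-kB binds a DNA element known as the kappa B site, and its consensus was searched on both strands of RefSeq promoters (assembly GRCr8, 250 bases before to 50 bases after each gene's start, 300 bases in all). A promoter counted once however many matches it held, and matches could overlap. Of the 68 members kept, 53 had a promoter in the reference, and 12 of these (22.6%) held the consensus, against 7.51% of all 33469 promoters. The sets are unlike, since all promoters were not limited to genes in the count table, while the members had passed a count filter. Among the 16 members with a promoter that passed a test described below, 3 held it (18.8%), against 9 of the other 37 (24.3%). The 3 are shown because they are the called members whose promoter held a match: Nfkb2 encodes an NF-kB subunit, Nfkbia the inhibitor IkB alpha, and Tlr2 a receptor at the head of the pathway. They lie at chr1:255108124-255108423 on the plus strand (Nfkb2), chr6:78597023-78597322 on the minus strand (Nfkbia) and chr2:171504508-171504807 on the minus strand (Tlr2), each written 5′ to 3′ along its gene with the consensus matches in capitals.
Nfkb2: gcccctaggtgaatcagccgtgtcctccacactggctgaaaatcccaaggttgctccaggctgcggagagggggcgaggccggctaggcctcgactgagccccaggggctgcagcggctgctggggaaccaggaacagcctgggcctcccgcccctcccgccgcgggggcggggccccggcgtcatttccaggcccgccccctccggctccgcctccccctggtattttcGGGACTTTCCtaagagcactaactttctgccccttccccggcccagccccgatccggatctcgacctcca
Nfkbia: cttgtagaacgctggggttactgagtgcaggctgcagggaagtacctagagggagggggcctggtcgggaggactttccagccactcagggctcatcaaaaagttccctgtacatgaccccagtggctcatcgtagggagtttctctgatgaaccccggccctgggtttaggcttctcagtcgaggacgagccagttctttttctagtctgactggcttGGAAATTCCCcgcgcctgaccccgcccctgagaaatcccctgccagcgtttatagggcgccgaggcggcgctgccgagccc
Tlr2: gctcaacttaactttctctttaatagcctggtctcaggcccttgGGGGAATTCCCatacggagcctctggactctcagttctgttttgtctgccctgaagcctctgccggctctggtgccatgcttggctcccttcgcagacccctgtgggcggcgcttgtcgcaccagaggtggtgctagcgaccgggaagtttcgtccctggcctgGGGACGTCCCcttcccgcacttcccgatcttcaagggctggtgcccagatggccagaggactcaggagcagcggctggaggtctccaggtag
In Nfkb2 the match begins 20 bases before the gene's start, in Nfkbia 31 bases before it, and in Tlr2 at 206 and 205 bases (overlapping) and again at 42 bases before it. A match is a string of letters and was not shown here to be bound.

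Several libraries stood apart in ways that bear on these genes. KI sham 3 had the highest level among the KI shams for 36 of the 67 tested members, and KI sham 1 had the lowest for 45. The 4 KI 3 Class V libraries were close to each other. The median SD of a member across them was 0.152 on the log2 scale of CPM (counts scaled to library size). It was 0.458 in KI sham, 0.351 in KA sham and 0.228 in KA 3 Class V. Over all genes the groups ranked alike, with median SDs of 0.131 in KI 3 Class V and 0.349 in KI sham. Those of KA sham and KA 3 Class V were 0.274 and 0.146. Genes resembling ribosomal RNA took 16.4% of counts in KI sham 2, 16.3% in KI 3 Class V 1 and 9.67% in KA sham 4, and at most 2% elsewhere. Totals ran from 30925368 to 49943021 counts per library. The summed level of 5 choroid plexus markers reached 959 CPM in KI sham 4 and 613 in KA sham 3, but at most 71.8 CPM in any other library. Markers that set the hippocampus apart from other brain tissue were not examined. As a check for neuronal RNA only, 5 neuronal genes summed to at least 2580 CPM in each library. Their sums did not overlap between the KI groups, with 2980 to 3400 CPM in KI sham and 4160 to 5320 CPM in KI 3 Class V. Results are therefore given with and without the libraries that stood apart.

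Most members had values above 0 in the KA model and below 0 in the KI model. In KA 3 Class V against KA sham, 54 of 67 members (80.6%) had a log2 fold change above 0, with a median of 0.23, while 48% of all 13338 tested genes were above 0 and their median was -0.01. In KI 3 Class V against KI sham, 14 of 67 members were above 0 and 53 (79.1%) below it, with a median of -0.51, while 46.8% of all genes were above 0 and their median was -0.04. Members positive in KA and negative in KI numbered 44 (65.7%), against 21.7% of all genes. The 2 models share no control library.

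No member passed the test in the KA model: edgeR's quasi-likelihood test with Benjamini-Hochberg adjustment called 0 of 67 at an adjusted p under 0.05, where 0.172% of all genes were called, each of them higher. At an unadjusted p under 0.05, 17 members were higher and 3 lower, a share of 29.9% against 9.93% of all genes (6.34% higher, 3.59% lower). DESeq2 called 1 member, higher (1.47%, against 1.85% of all genes), and limma-voom 11 higher and 3 lower (20.9%, against 5.44%). Levels in all 3 KA 3 Class V libraries lay above all 7 KA shams for 6 members (8.96%, against 2.95% of all genes) and below them for 2 (2.99%, against 2.7%). The 6 were Ikbkb, Nfkb1, Nfkbia, Tlr9, Tnfsf13b and Traf7, and the 2 were Casp9 and Traf3.

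In the KI model edgeR called 13 members, all lower in KI 3 Class V than in KI sham (19.4%). Over all genes 9.99% were called, 4.74% higher and 5.25% lower. DESeq2 called 27 members, 26 lower and 1 higher (39.7%, against 21.2% of all genes). With limma-voom 46 were called, 40 lower and 6 higher (68.7%, against 55.2%). The 13 were Casp4, Casp6, Casp8, Nfkb2, Nfkbib, Nlrp3, Pycard, Ripk3, Tlr2, Tnfrsf1a, Tnfsf12, Tnfsf13b and Traf4. Unadjusted p under 0.05 was reached by 33 lower and 2 higher members, 52.2% against 35.4% of all genes (17.2% higher, 18.2% lower). All 4 KI 3 Class V libraries lay below all 4 KI shams for 20 members (29.9%, against 8.07% of all genes) and above them for 1, Tnfrsf11b (1.49%, against 12.1%). Each of the 13 calls was lost when any 1 of KI 3 Class V 1, 2 and 3 was left out, and only those of Nfkbib and Traf4 remained without KI sham 3 or without KI 3 Class V 4.

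The KA change minus the KI change, which tests whether the models differ, gave 12 called members, all with a higher change in KA (17.9%). Of all genes 3.8% were called, 3.15% with a higher change in KA and 0.652% with a lower one. DESeq2 called 25 members, all with a higher change in KA (36.8%, against 8.09% of all genes). With limma-voom 40 were called, 38 with a higher and 2 with a lower change (59.7%, against 35.8%). The 12 were Myd88, Nfkb2, Nfkbia, Nlrp3, Pycard, Rela, Ripk3, Tlr7, Tnfrsf12a, Tnfrsf1a, Tnfrsf1b and Tnfsf13b. Of these, 6 were also called in KI: Nfkb2, Nlrp3, Pycard, Ripk3, Tnfrsf1a and Tnfsf13b. At an unadjusted p under 0.05 there were 37 members with a higher and 3 with a lower change, 59.7% against 20.5% of all genes (11.4% and 9.17%). For 40 members all KA 3 Class V libraries were above all those of KI 3 Class V (59.7%, against 16.5% of all genes), and they were below for 3 (4.48%, against 17.9%). All 12 calls were lost without KA 3 Class V 3, where 0.417% of all genes were called.

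Between the shams, KA sham against KI sham, edgeR called 0 members (0.0075% of all genes, 1 gene with a lower level in KA sham), as did DESeq2 (0.0642% of all genes) and limma-voom (3.08%). Unadjusted p under 0.05 was reached by 2 higher and 7 lower members, 13.4% against 8.63% of all genes (4.05% and 4.58%). The median member was lower in KA sham by a log2 fold change of -0.17. The difference between the models includes this gap between the shams. The gap rested on few libraries: its median was -0.03 without KI sham 3 and 0.07 without KI sham 3 and KI sham 4 together.

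**Figure D1:**
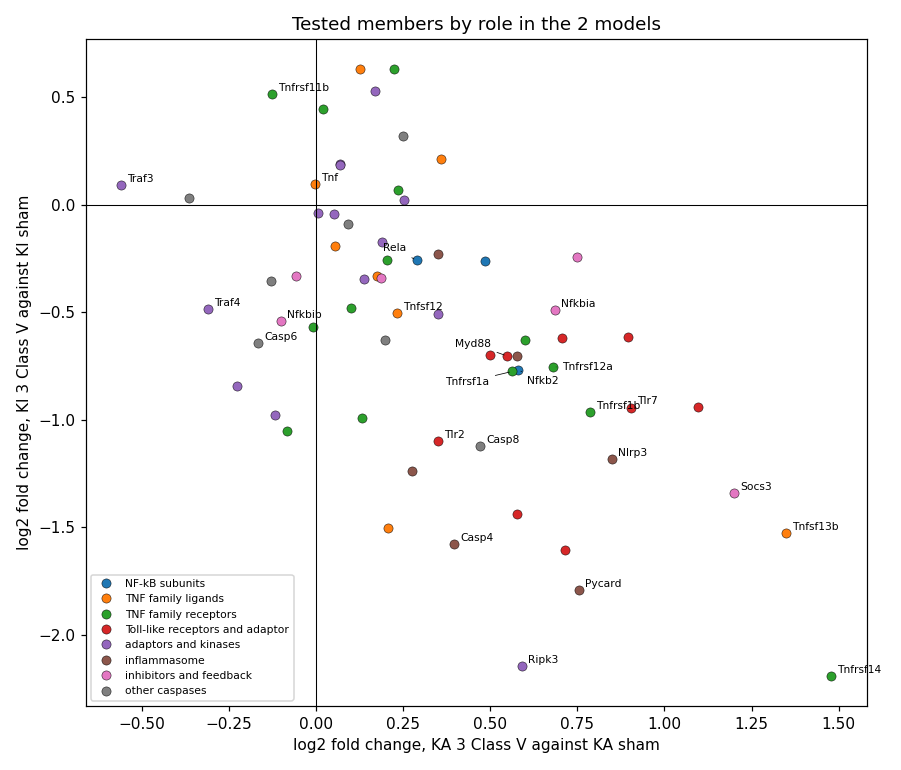
Each point is 1 of the 67 tested members, placed by its log2 fold change in the KA model (x axis) and in the KI model (y axis) and coloured by role. The lower right area, positive in KA and negative in KI, holds 44 members, among them 8 Toll-like receptor genes with Myd88 and all 6 inflammasome genes.

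The Toll-like receptors and their adaptor had values of opposite sign in the 2 models for each of the 9 genes tested. Their median log2 fold change was 0.70 in KA and -0.94 in KI. EdgeR called 0 of 9 in KA, 1 lower in KI (Tlr2) and 2 with a higher change in KA than in KI (Tlr7 and Myd88). Those calls were 11.1% in KI and 22.2% in the difference, against 9.99% and 3.8% of all genes. Tlr2, the receptor for bacterial lipoproteins whose promoter is printed above, measured 7.75, 13.8, 24 and 15.5 CPM in KI shams 1 to 4 and 7.18, 7.11, 7.15 and 7.16 CPM in KI 3 Class V 1 to 4. The lowest sham was only just above the kindled libraries, which were nearly identical to each other. The log2 fold change was -1.10 ± 0.34 (SE; edgeR adjusted p = 0.0487). In the KA model Tlr2 ran from 6.93 to 21.5 CPM in shams with a median of 9.4, and measured 10.4, 14.9 and 17.8 CPM in KA 3 Class V. These groups overlapped (log2 fold change 0.35 ± 0.32, edgeR adjusted p = 0.756).

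Myd88, the shared adaptor, ran from 8.62 to 17.1 CPM in KA shams (median 9.92) and measured 13.2, 17.7 and 17.6 CPM in KA 3 Class V. The KI shams held 7.68, 13.4, 20.8 and 14.4 CPM and the KI 3 Class V libraries 8.03, 9.47, 8.7 and 8.41 CPM. KI sham 1 was the lowest of all 18 libraries for this gene, so the KI groups overlapped. The KA change exceeded the KI change by 1.25 ± 0.34 on the log2 scale (edgeR adjusted p = 0.0487).

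Tlr7, an endosomal sensor of single-stranded RNA, ran from 4.03 to 11.5 CPM in KA shams (median 6.01) against 8.56, 15.7 and 11.8 CPM in KA 3 Class V. Its KI shams measured 3.42, 7.75, 14.5 and 11.9 CPM and its KI 3 Class V libraries 5.29, 5.43, 4.39 and 4.46 CPM. Groups overlapped within each model, and all 3 KA 3 Class V libraries lay above all 4 of KI. The change differed by 1.85 ± 0.50 (edgeR adjusted p = 0.0486). Tlr4, the receptor for endotoxin and for the injury signal HMGB1, did not pass in KA (0.70 ± 0.34, edgeR adjusted p = 0.511), in KI (-0.62 ± 0.36, 0.219) or in the difference (1.33 ± 0.50, 0.144). Tlr3, a sensor of double-stranded RNA, reached 7.17 to 9.35 CPM in KA 3 Class V against 2.84 to 7.43 CPM in KA sham, with a log2 fold change of 0.90 ± 0.31 (edgeR adjusted p = 0.263). Tlr1, a partner of Tlr2, measured 1.25, 2.26, 8.95 and 1.99 CPM in the KI shams, so that KI sham 3 alone set its mean, and its KI change of -1.61 ± 0.56 was not called (edgeR adjusted p = 0.0631) and was -0.63 without that library.

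All 6 inflammasome genes were likewise positive in KA and negative in KI, with medians of 0.49 and -1.21. Called in KI were 3 (Pycard, Nlrp3 and Casp4, each lower) and in the difference 2 (Pycard and Nlrp3). Those calls were 50% and 33.3%, against 9.99% and 3.8% of all genes. Pycard, the adaptor ASC, measured 8.13, 7.68, 16.5 and 9.25 CPM in the KI shams and 2.74, 3.33, 2.9 and 3.02 CPM in KI 3 Class V. Every kindled library lay below the lowest sham, a 3.46-fold lower fitted level (log2 fold change -1.79 ± 0.43, edgeR adjusted p = 0.0292). KA shams ran from 2.98 to 14.2 CPM (median 5.45) and KA 3 Class V held 9.15, 13.7 and 12.3 CPM, an overlap with 2 of the shams. The KA change was 0.75 ± 0.39 (edgeR adjusted p = 0.554), and the difference between the changes was 2.54 ± 0.58 (adjusted p = 0.0236).

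Nlrp3, the sensor of that inflammasome, measured 3.56, 6.95, 12 and 8.76 CPM in KI shams and 3.31, 3.41, 3.83 and 3.28 CPM in KI 3 Class V. KI sham 1 fell among the kindled libraries and the other 3 shams lay above them. The log2 fold change was -1.18 ± 0.36 (edgeR adjusted p = 0.0458). In KA it ran from 3.01 to 11.9 CPM in shams (median 5.94), with KA sham 4 far above the rest, and measured 8.88, 12.5 and 12.1 CPM in KA 3 Class V (0.85 ± 0.33, edgeR adjusted p = 0.34). The changes differed by 2.03 ± 0.48 (edgeR adjusted p = 0.0293).

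Casp4, the caspase that senses endotoxin inside cells, measured 3.77, 4.3, 11.6 and 4.31 CPM in KI shams and 1.61, 2.1, 1.97 and 2.36 CPM in KI 3 Class V (log2 fold change -1.58 ± 0.47, edgeR adjusted p = 0.0458). The groups did not overlap, and KI sham 3 was far above the other shams. Casp1, the caspase that matures interleukin-1 beta, likewise had KI sham 3 far above the rest and no overlap, with 3.6, 4.05, 10.9 and 3.56 CPM against 1.8, 3.16, 2.2 and 2.22 CPM. Its change of -1.24 ± 0.42 was not called (edgeR adjusted p = 0.0621).

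Of 8 TNF family ligands, 2 were called lower in KI and 1 in the difference. Those calls were 25% and 12.5%, against 9.99% and 3.8% of all genes. Tnf itself was low everywhere: 0.445 to 1.73 CPM in KA sham, 0.71 to 1.28 in KA 3 Class V, 0.415 to 1.52 in KI sham and 0.601 to 1.06 in KI 3 Class V. All 4 ranges overlapped, and the log2 fold changes were -0.00 ± 0.41 in KA and 0.10 ± 0.43 in KI (edgeR adjusted p = 1 and 0.882).

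Tnfsf13b, the B cell survival factor BAFF, had the largest difference between the models among the 12 called members. Its level was 0.34 to 0.967 CPM in KA sham (median 0.488) and 1.11, 1.65 and 1.34 CPM in KA 3 Class V, with no overlap. In KI shams it was 0.415, 0.765, 2.09 and 0.89 CPM and in KI 3 Class V 0.535, 0.276, 0.45 and 0.213 CPM, where KI sham 1 fell among the kindled libraries. The changes were 1.35 ± 0.38 in KA (edgeR adjusted p = 0.155) and -1.52 ± 0.44 in KI (adjusted p = 0.0417), and they differed by 2.88 ± 0.58 (adjusted p = 0.0158). Without KI sham 3 the KI change was -0.94 and the difference 2.28.

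Tnfsf12, which encodes the cytokine TWEAK, measured 19.7, 21.8, 20 and 21.3 CPM in KI shams and 14.2, 15.1, 13.7 and 15.4 CPM in KI 3 Class V. The groups were clearly apart and each was tight (log2 fold change -0.50 ± 0.15, edgeR adjusted p = 0.0425). The difference between the models narrowly missed the threshold for this gene (0.74 ± 0.20, edgeR adjusted p = 0.0506). Its receptor Fn14 is encoded by Tnfrsf12a, described next.

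Among 14 tested TNF family receptors, 1 was called lower in KI (Tnfrsf1a) and 3 in the difference (Tnfrsf1a, Tnfrsf1b and Tnfrsf12a). Those calls were 7.14% and 21.4%, against 9.99% and 3.8% of all genes. Tnfrsf1a, the main TNF receptor TNFR1, measured 24.5, 30.3, 33.6 and 38 CPM in KI shams and 18.3, 18.6, 18.6 and 18.4 CPM in KI 3 Class V. The shams were spread and the kindled libraries nearly equal, with no overlap (log2 fold change -0.78 ± 0.19, edgeR adjusted p = 0.0316). In KA it ran from 18.7 to 36.7 CPM in shams (median 24.8) and measured 30.9, 38.5 and 44 CPM in KA 3 Class V, overlapping the highest sham (0.56 ± 0.18, edgeR adjusted p = 0.214). The changes differed by 1.34 ± 0.26 (edgeR adjusted p = 0.0153), the smallest p of any member.

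Tnfrsf1b, the second TNF receptor, ran from 2.03 to 7.13 CPM in KA shams (median 4.2) against 5.78, 7.65 and 9.04 CPM in KA 3 Class V. Its KI shams were 2.73, 5.99, 9.07 and 9.06 CPM and its KI 3 Class V libraries 3.78, 3.68, 3.04 and 3.31 CPM. KI sham 1 lay below all kindled libraries and the other shams above them. The changes differed by 1.75 ± 0.47 (edgeR adjusted p = 0.0455), while neither model's own change was called (KA 0.79 ± 0.32, KI -0.96 ± 0.34).

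Tnfrsf12a, the TWEAK receptor, measured 3.52, 4.02 and 10.6 CPM in KA 3 Class V against 2.71 to 4.38 CPM in KA sham (median 3.83). Only KA 3 Class V 3 lay above the shams. The KA change of 0.68 ± 0.25 became -0.01 without that library. In KI the shams held 4.63, 4.91, 4.6 and 4.52 CPM and the kindled libraries 2.46, 2.5, 2.7 and 3.38 CPM, with no overlap, although the change of -0.75 ± 0.27 was not called (edgeR adjusted p = 0.0688). The difference of 1.43 ± 0.37 (edgeR adjusted p = 0.0393) fell to 0.76 without KA 3 Class V 3.

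The largest fitted differences can also rest on very few reads. Tnfrsf14, named here after its values were seen, had a difference of 3.67 ± 1.25 (edgeR adjusted p = 0.11), the highest of any member. Only 5 libraries held 10 or more of its counts. KI sham 3 stood at 2.51 CPM beside 0.128 to 0.208 CPM in the other KI shams. KA 3 Class V 3 stood at 1.31 CPM beside 0.295 and 0.15 CPM in KA 3 Class V 1 and 2. Tnfrsf11b, the decoy receptor osteoprotegerin and also named after its values were seen, was the 1 member wholly higher in KI 3 Class V (16.3 to 18.7 CPM against 8.61 to 16 CPM), and its change of 0.51 ± 0.18 was not called (edgeR adjusted p = 0.0672).

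**Figure D2:**
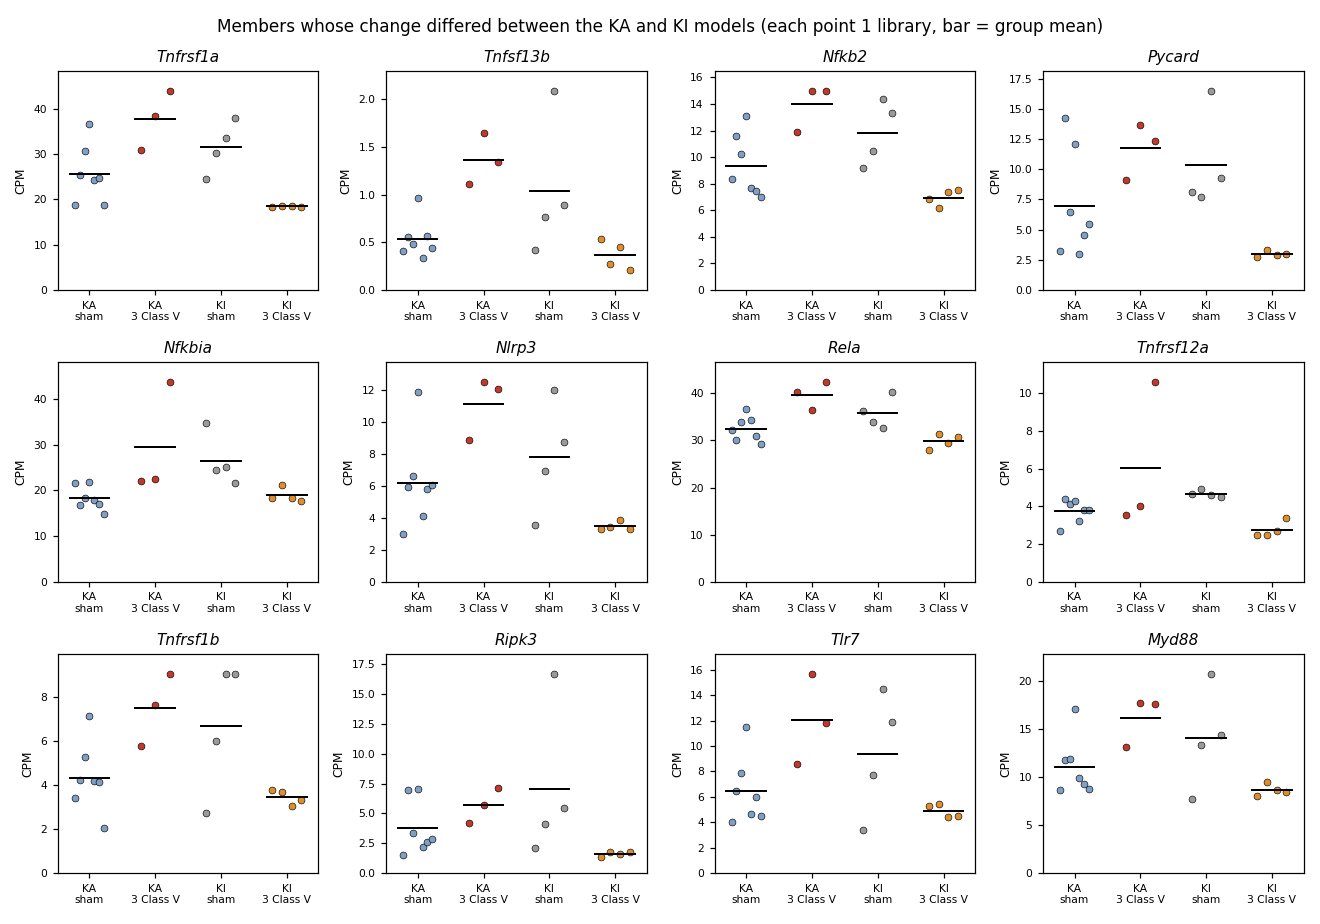
Levels in CPM (y axis, starting at 0) of the 12 members whose change differed between the models, in the 4 groups (x axis), with each point 1 library and each bar the group mean. The KI 3 Class V libraries lie close together and low, while KI sham 3, at 16.7 CPM for Ripk3 and 2.09 CPM for Tnfsf13b, and KA 3 Class V 3, at 43.7 CPM for Nfkbia and 10.6 CPM for Tnfrsf12a, stand far above the rest of their groups.

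The 14 adaptors and kinases between receptor and NF-kB had values nearer 0 as a group, with medians of 0.07 in KA and -0.11 in KI. Called lower in KI were 2 (Ripk3 and Traf4) and in the difference 1 (Ripk3). Those calls were 14.3% and 7.14%, against 9.99% and 3.8% of all genes. Ripk3, the kinase that drives necroptosis, measured 2.14, 4.08, 16.7 and 5.41 CPM in KI shams and 1.35, 1.73, 1.58 and 1.75 CPM in KI 3 Class V. The groups did not overlap, but KI sham 3 stood far above the other shams. The change of -2.14 ± 0.55 (edgeR adjusted p = 0.0333) shrank to -1.28 without it, and the difference of 2.74 ± 0.73 (edgeR adjusted p = 0.0457) to 1.86. In KA, Ripk3 ran from 1.55 to 7 CPM in shams (median 2.84) and measured 4.18, 5.7 and 7.12 CPM in KA 3 Class V (0.59 ± 0.50, edgeR adjusted p = 0.728).

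Traf4, an adaptor of the TRAF family, had values below 0 in both models: 31.3, 30.5, 25 and 32.8 CPM in KI shams against 19.8, 21.9, 22.1 and 21.8 CPM in KI 3 Class V, and 24.4 to 34.2 CPM in KA shams (median 30.8) against 23.4, 22.2 and 25.1 CPM in KA 3 Class V. The KI groups did not overlap (log2 fold change -0.48 ± 0.12, edgeR adjusted p = 0.0328) and the KA groups did (-0.31 ± 0.12, edgeR adjusted p = 0.347). The difference between the models was 0.17 ± 0.17, with an edgeR adjusted p of 0.605.

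Traf3, a brake on the non-canonical NF-kB route, had the lowest KA change of any member: 98.7 to 199 CPM in KA shams (median 135) and 92.7, 95.7 and 90.5 CPM in KA 3 Class V. These groups did not overlap, yet the change of -0.56 ± 0.19 was not called (edgeR adjusted p = 0.266). In KI it was 0.09 ± 0.19. Ripk1, the kinase recruited to TNFR1, measured 5.07, 13.7, 5.18 and 11.6 CPM in KI 3 Class V against 9.93 to 14.8 CPM in KI sham. Its kindled libraries were far apart, and the groups overlapped (-0.51 ± 0.26, edgeR adjusted p = 0.17). The IkB kinase genes Chuk, Ikbkb and Ikbkg had no call in any comparison. Traf3ip1, Traf3ip2 and Traf3ip3 match the naming rule without being TRAF proteins, and none of them was called.

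Outside the inflammasome, 7 caspase-named genes were tested, of which 2 were called lower in KI and 0 in the other comparisons. The KI calls were 28.6%, against 9.99% of all genes. Casp8, the initiator caspase downstream of TNF receptors, measured 1.25, 2.84, 4.74 and 2.25 CPM in KI shams and 1.13, 1.6, 1.32 and 1.04 CPM in KI 3 Class V. KI sham 1 overlapped the kindled libraries (log2 fold change -1.12 ± 0.34, edgeR adjusted p = 0.0463). Casp6, an effector caspase, measured 7.06, 7.01, 6.64 and 9.06 CPM against 3.72, 5.18, 5.1 and 5.06 CPM, with no overlap (-0.64 ± 0.19, edgeR adjusted p = 0.0458). Casp9, the initiator of the mitochondrial route, lay at 50.7, 43.5 and 44.2 CPM in KA 3 Class V, below all KA shams (52.6 to 73.1 CPM), with a change of -0.37 ± 0.12 that was not called (edgeR adjusted p = 0.247). Casp8ap2, which encodes a protein that binds caspase-8 and is not itself a caspase, had values above 0 in both models (0.25 ± 0.13 and 0.32 ± 0.13) and no call.

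The 3 NF-kB subunit genes were each positive in KA and negative in KI, and each reached an unadjusted p under 0.05 in KA and in the difference. At that threshold stood 9.93% and 20.5% of all genes. EdgeR called 1 lower in KI (Nfkb2) and 2 in the difference (Nfkb2 and Rela). These were 33.3% and 66.7%, against 9.99% and 3.8% of all genes. Nfkb2, which encodes p100 and its product p52 and whose promoter is printed above, measured 9.2, 10.5, 14.4 and 13.3 CPM in KI shams and 6.83, 6.14, 7.35 and 7.51 CPM in KI 3 Class V, with no overlap (log2 fold change -0.77 ± 0.20, edgeR adjusted p = 0.0333). In KA the shams ran from 6.98 to 13.1 CPM (median 8.37) and the 3 Class V libraries held 11.9, 15 and 15 CPM. KA sham 4 was the 1 sham to reach them (0.58 ± 0.19, edgeR adjusted p = 0.22). The difference of 1.35 ± 0.27 had an edgeR adjusted p of 0.0158.

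Rela, the p65 subunit, measured 40.4, 36.4 and 42.4 CPM in KA 3 Class V against 29.2 to 36.7 CPM in KA sham (median 32.3), and 27.9, 31.4, 29.5 and 30.8 CPM in KI 3 Class V against 36.2, 33.9, 32.6 and 40.3 CPM in KI sham. The KI groups were apart and the KA groups met at 1 library. Neither change was called (KA 0.29 ± 0.10, KI -0.26 ± 0.10; edgeR adjusted p = 0.239 and 0.0813), and the difference of 0.55 ± 0.14 was (adjusted p = 0.0352). It was the smallest called difference. Nfkb1, the p105 and p50 subunit, lay at 36.4, 44.2 and 46.8 CPM in KA 3 Class V, above all KA shams (23.6 to 35.3 CPM), with no call (0.48 ± 0.16, edgeR adjusted p = 0.251).

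The inhibitors and feedback genes numbered 6, of which 1 was called lower in KI (Nfkbib) and 1 in the difference (Nfkbia). Each was 16.7%, against 9.99% of all genes in KI and 3.8% in the difference. Nfkbia, the IkB alpha gene whose promoter is printed above, measured 22, 22.5 and 43.7 CPM in KA 3 Class V, above all KA shams (14.9 to 21.9 CPM, median 17.8). KA 3 Class V 1 and 2 cleared the highest sham only narrowly and KA 3 Class V 3 stood far above them. The KA change of 0.68 ± 0.19 was not called by edgeR (adjusted p = 0.145) and was called by DESeq2 (adjusted p = 0.0426), and it was 0.27 without KA 3 Class V 3. KI shams held 34.7, 24.5, 25.1 and 21.7 CPM and KI 3 Class V 18.3, 21.2, 18.4 and 17.6 CPM (-0.49 ± 0.20, edgeR adjusted p = 0.0974), and the changes differed by 1.17 ± 0.28 (edgeR adjusted p = 0.0283).

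Nfkbib, the IkB beta gene, gave the smallest p of any member in KI: 27.4, 21, 21.3 and 22.4 CPM in shams against 16.2, 13.5, 16.8 and 16.8 CPM in KI 3 Class V, with no overlap (log2 fold change -0.54 ± 0.11, edgeR adjusted p = 0.023). In KA its change was -0.10 ± 0.11, and the difference between the models was not called (0.44 ± 0.16, edgeR adjusted p = 0.131). Socs3, a feedback inhibitor of cytokine signalling, measured 2.46, 3.16 and 7.68 CPM in KA 3 Class V against 0.994 to 3.53 CPM in KA sham, and 1.32, 0.726, 1.18 and 0.992 CPM in KI 3 Class V against 0.484, 1.69, 5.8 and 2.62 CPM in KI sham. KA 3 Class V 3 and KI sham 3 stood highest in their groups, and neither change was called (KA 1.20 ± 0.50, KI -1.34 ± 0.56). The KA value was 0.53 without KA 3 Class V 3, and the KI value was -0.62 without KI sham 3. The uncalled difference of 2.54 was 1.81 without KI sham 3. Nfkbiz, an inducible nuclear IkB, had the same library on top (2.83, 2.84 and 6.49 CPM), with a KA change of 0.75 ± 0.26 (edgeR adjusted p = 0.267) that was 0.22 without it. Nfkbie, the IkB epsilon gene, was not called (KA 0.19 ± 0.12, KI -0.34 ± 0.13).

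Other genes of the pathway that the naming rule leaves out were counted from 6 lists of 78 genes, of which 65 were tested. None was called in KA, where 13 were higher and 1 lower at an unadjusted p under 0.05 (21.5%, against 9.93% of all genes). In KI 7 were called lower and 2 higher (13.8%, against 9.99% of all genes), a share near that of all genes. In the difference 9 had a higher and 1 a lower change in KA (15.4%, against 3.8%). Sting1, the adaptor of cytosolic DNA sensing, averaged 8.71 ± 2.02 CPM (SD, n = 4) in KI sham and 4.45 ± 0.293 in KI 3 Class V, and its changes differed by 1.75 ± 0.32 on the log2 scale (edgeR adjusted p = 0.0135). Gsdmd, the pore former cut by inflammatory caspases, differed by 1.16 ± 0.25 (edgeR adjusted p = 0.0211), and Il18, an inflammasome product, by 2.24 ± 0.53 (adjusted p = 0.0284). Tradd, the adaptor of TNFR1, and Nod1, a cytosolic peptidoglycan sensor, were lower in KI by log2 fold changes of -0.62 ± 0.15 and -0.58 ± 0.15 (edgeR adjusted p = 0.0284 and 0.0333). Bcl3 and Zc3h12a, which act on NF-kB output, had a higher change in KA by 2.12 ± 0.49 and 1.29 ± 0.32 (edgeR adjusted p = 0.0251 and 0.0335). The 2 genes called higher in KI were Cyld, a deubiquitinase that restrains NF-kB (0.64 ± 0.17, edgeR adjusted p = 0.0351), and Ptgs2, the inducible cyclooxygenase that neurons also make (1.77 ± 0.52, adjusted p = 0.0448), the second named after its values were seen. Ptgs2 went against the lower members of the pathway in KI, at 35.1 to 44.9 CPM in KI 3 Class V against 2.84 to 19.8 CPM in KI sham.

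Markers of several cell types moved with the groups. Microglial markers, 10 genes and all of them measured, summed to values that ran from 531 to 1250 CPM in KA sham, 1030 to 1370 in KA 3 Class V, 737 to 1400 in KI sham and 524 to 543 in KI 3 Class V. Every KI 3 Class V library was therefore below every KI sham, and KA 3 Class V overlapped its shams. EdgeR called 0 of the 10 markers in KA, 6 lower in KI and 7 with a higher change in KA. Their shares were 60% in KI and 70% in the difference, against 9.99% and 3.8% of all genes. Markers of activated microglia and macrophages, 7 of 8 measured, summed to 45.9 to 685 CPM in KI sham and 57 to 73.4 CPM in KI 3 Class V. KI sham 3 stood at 608 and KI sham 4 at 685, of which Spp1 alone made up 373 and 249 CPM. In KA the sums were 55.3 to 315 CPM in sham and 190 to 288 CPM in KA 3 Class V. EdgeR called 0 of the 7 in KA, 4 lower in KI and 2 with a higher change in KA. Those calls were 57.1% in KI and 28.6% in the difference, against 9.99% and 3.8% of all genes. The list did not move as 1 in KI: Cd163 was above 0 (0.64 ± 0.39) and Mrc1 near it (-0.13 ± 0.25), and neither was called. Neutrophil markers summed to at most 6 CPM in any library.

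Neuronal markers went the other way in KI. All 4 KI 3 Class V libraries lay above all KI shams in the summed level of the 5 neuronal markers given above, and edgeR called 2 of the 5 higher: Syt1, a synaptic vesicle protein (1.21 ± 0.36, adjusted p = 0.045), and Slc17a7, a vesicular glutamate transporter (0.65 ± 0.20, adjusted p = 0.0495). The 2 calls were 40% of the list, against 9.99% of all genes. In KA the neuronal sums overlapped, at 2580 to 4840 CPM in shams and 3210 to 3230 CPM in KA 3 Class V, and 0 of the 5 were called. Astrocyte markers, 5 genes, summed to between 4250 and 8040 CPM in KA sham and between 10200 and 12500 CPM in KA 3 Class V, with no overlap. Of these, Gfap, the intermediate filament gene of reactive astrocytes, was called higher in KA (1.24 ± 0.24, edgeR adjusted p = 0.041) and in the difference (1.33 ± 0.36, adjusted p = 0.0455). The other 4 were not called in KA and did not move alike. Their log2 fold changes were 0.71 for Aqp4, 0.41 for Gja1, 0.09 for Aldh1l1 and -0.07 for Slc1a3. The astrocyte sums of the KI groups overlapped, and Aqp4 alone was called there, higher (0.61 ± 0.19, edgeR adjusted p = 0.0486).

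The other lists had few calls. Oligodendrocyte markers, 4 genes, summed to between 13800 and 18600 CPM in KI sham against 8440 to 12000 CPM in KI 3 Class V, with no overlap. Their KA shams spread from 10700 to 31600 CPM around KA 3 Class V at 11700 to 12000 CPM. None of the 4 was called in either model, and at an unadjusted p under 0.05 all 4 were lower in KI and 3 in KA. Lymphocyte markers, 6 of 7 measured, summed to at most 46.1 CPM, in KI sham 3, and 1 of them, Cd8a, was called lower in KI. Of 6 markers of endothelium and pericytes, Cldn5 alone was called, lower in KI. None of the 5 choroid plexus markers was called, and in KI all 5 were lower at an unadjusted p under 0.05. Blood markers had no call. In bulk tissue, fewer cells of a type and less RNA per cell cannot be told apart, and the part of cell content in the members' changes was not tested.

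**Figure D3:**
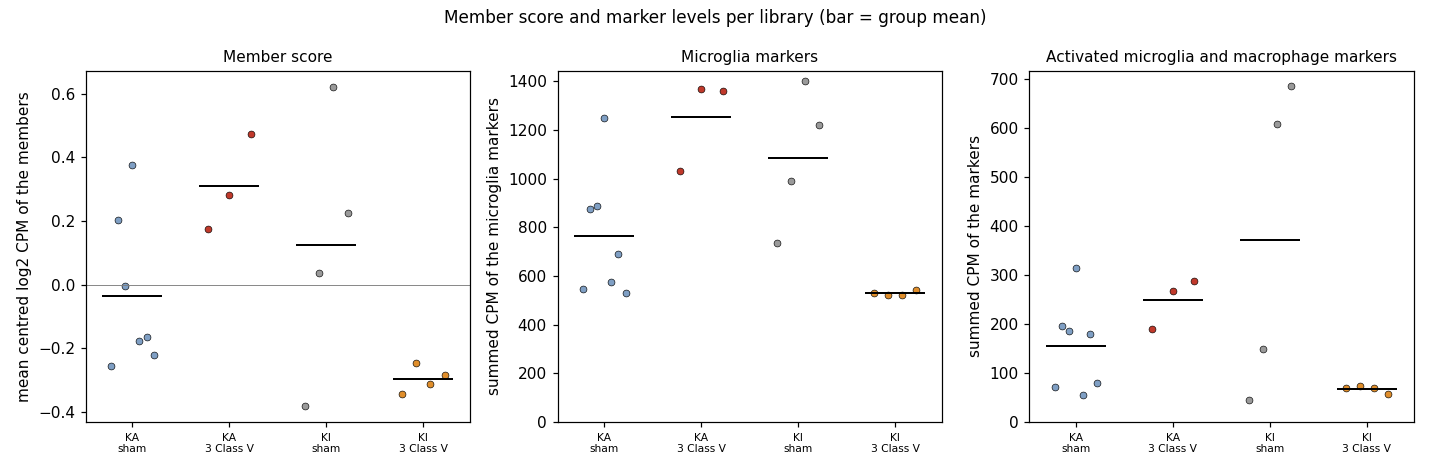
Per library in the 4 groups (x axis), the left panel plots the mean centred log2 CPM of the tested members, the middle panel the summed CPM of 10 microglial markers and the right panel that of 7 markers of activated microglia and macrophages, with bars at group means. The member score is -0.382 in KI sham 1 and 0.622 in KI sham 3, and the 4 KI 3 Class V libraries lie between -0.345 and -0.245 in the left panel and between 524 and 543 CPM in the middle one.

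Other library properties moved with the groups too. A score over 88 ribosomal protein genes averaged 0.253 ± 0.435 (SD, n = 4) in KI sham and -0.38 ± 0.135 in KI 3 Class V, and with this score as a covariate edgeR called 0 members in KI (0.787% of all genes) and 14 in the difference (20.9%, against 7.68%). Without KI sham 3 and KI sham 4 together, 10 members were called in KI, 8 lower and 2 higher, of which 4 were among the original 13. That was 14.9% of the members, a lower share than the 28% called over all genes in this setting, and in the difference 5 were called (7.46%, against 4.87%). Without KI sham 4 and KA sham 3, the libraries rich in choroid plexus markers, 22 members were called in KI (32.8%, against 29.6% of all genes) and 5 in the difference (7.46%, against 2.6%). Without the 3 libraries rich in genes resembling ribosomal RNA, 0 members were called in KI, where the count over all genes fell from 1332 to 17 (0.128%), and 7 in the difference (10.4%, against 2.82%). The median log2 fold change of the members in KI was -0.39, -0.28, -0.52 and -0.48 in these 4 settings, against -0.51 with all libraries.

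Leaving out 1 library at a time changed the number of calls more than the size of the changes. In KI, 0 members were called without KI 3 Class V 1, 2 or 3, where the count over all genes fell to 9. Without KI 3 Class V 4 or KI sham 3, 2 were called (2.99%, against 3.95% and 0.999% of all genes). Members called were 5 to 8 without KI sham 2, KA sham 3 or 7, or KA 3 Class V 1 or 2. Those were 7.46% to 11.9%, against 3.4% to 7.65% of all genes. Without KI sham 1 they numbered 22 (32.8%, against 7.98%), and without KI sham 4 they numbered 24 (35.8%, against 32.3%). The members' median stayed between -0.59 and -0.41. In the difference, 0 members were called without KA 3 Class V 3 (0.417% of all genes). They numbered 3 or 4 without KI sham 3 or any 1 KI 3 Class V library (4.48% to 5.97%, against 0.96% to 1.98%). Without KA sham 1, 3, 5, 6 or 7 or KA 3 Class V 2 they numbered 6 or 7. Those were 8.82% to 10.4%, against 1.13% to 2.52% of all genes. Without KA sham 2 they numbered 19 (28.4%, against 5.76%), and without KI sham 1 they numbered 26 (38.8%, against 6.73%). The median stayed between 0.53 and 0.81. Nfkb2, Tnfrsf1a and Tnfsf13b were called in the difference in 17 of these 18 fits.

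**Figure D4:**
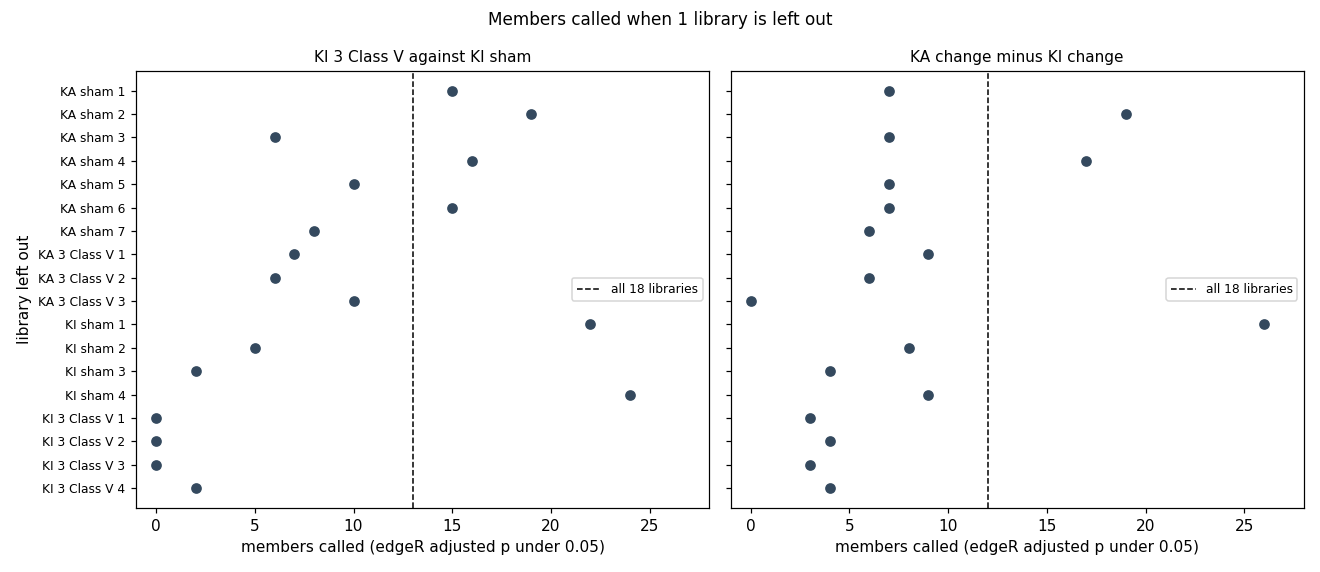
Each point is the number of members called by edgeR (x axis) when the library named on the y axis is left out, for KI 3 Class V against KI sham on the left and for the KA change minus the KI change on the right, and the dashed line marks the count with all 18 libraries (13 and 12). Counts run from 0 to 24 on the left and from 0 to 26 on the right.

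At the edge of the filter, Tnfrsf8 had 10 or more counts in 3 libraries and Tnfrsf4, Tnfrsf13b and Tnfrsf14 in 5, while Tnfsf11 and Tlr12 were left out with 2. The 17 members left out were Nlrp4, Nlrp4a, Nlrp5, Nlrp6, Nlrp9, Nlrp10, Nlrp12, Casp14, Tlr5, Tlr10, Tlr11, Tlr12, Tnfrsf17, Tnfrsf18, Tnfsf8, Tnfsf11 and Tnfsf14. Tnfrsf8 was kept and did not pass the filter of the test.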

How the data were processed

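Hippocampal RNA of 18 libraries in 4 groups was analysed from a deposited table of raw counts per gene symbol. The submitters' processing notes name HISAT2, featureCounts, FastQC, Trimmomatic, DESeq2 and build rn6. For versions, annotation, strand and multi-mapping settings nothing is given in the sources used here. Reads of overlapping or near-identical genes may therefore have been split. Per the labels, RNA was polyadenylated and reads were single-end, 110 bases. From those counts, CPM were computed with TMM factors, and log2 CPM with a prior count of 2.

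Tests used edgeR 4.0.16 in R 4.3.3 (filterByExpr, group means, robust quasi-likelihood F test, two-sided, 13338 genes, 14 residual degrees of freedom, Benjamini-Hochberg over all genes, threshold 0.05) with all 18 libraries in 1 fit. The SE of a fold change is its absolute log2 value over the root of F. Alternatives were DESeq2 1.42.0, limma-voom 3.58.1 with quality weights, other scaling and filters, a replicate block, covariates and libraries left out.

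Members, lists and tests were chosen with earlier results of these data known. Genes named are the members called in any comparison, the 2 with the smallest p per role and model, and 17 core pathway genes. Of those 17, Tnfaip3 was not among the symbols of the count table. Of other pathway genes, up to 6 called per comparison were named. Any other gene named was chosen after its values were seen. All 85 symbols matched RefSeq. The labels do not state that each library is a separate animal, so p-values may measure a partly technical spread. Within groups all 36 pairs of libraries differed beyond counting noise (20.4 to 603 chi-square units for each degree of freedom). No column was left unmatched. The values of 1 member are not reported here.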

Additional observations from a re-analysis of the deposited data

Results flagged for a closer look

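The 12 members whose change differed between the KA and KI models, by edgeR's test of the difference itself, are listed with the KA change minus the KI change on the log2 scale. Among sensors and inflammasome genes these were Pycard (2.54), Nlrp3 (2.03), Tlr7 (1.85) and Myd88 (1.25). Ligands and receptors were Tnfsf13b (2.88), Tnfrsf1b (1.75), Tnfrsf12a (1.43) and Tnfrsf1a (1.34). Downstream were Ripk3 (2.74), Nfkb2 (1.35), Nfkbia (1.17) and Rela (0.55).

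A library far from the others of its group was found in 11 of the 96 sets of values examined. Chance gives about 1 in 20 for independent sets, but these sets shared libraries, so that rate cannot be set against the 11. KA 3 Class V, with 3 libraries, was too small to be examined in this way. KI sham 3 was the high library for Casp1 (10.9 CPM, next 4.05), Casp4 (11.6, next 4.31) and Tlr1 (8.95, next 2.26). KA sham 4 was the high one for Myd88 (17.1, next 11.9), Nlrp3 (11.9, next 6.61) and Tnfsf13b (0.967, next 0.567), and KA sham 2 for Casp9 (73.1, next 61.2). Within the narrow KI 3 Class V group, library 1 was low for Casp6 (3.72 CPM, next 5.06) and Traf4 (19.8, next 21.8), and library 2 was high for Nfkbiz (2.86, next 2.03) and Tlr3 (4.51, next 3.73). KI sham 3 and KA sham 4 also held the most microglial marker RNA of their sham groups, at 1400 and 1250 CPM summed, and its part in these values was not tested.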

How the results depend on the processing

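Members called numbered 0 in KA, 13 in KI and 12 in the difference between the models. With DESeq2 they were 1, 27 and 25, where 1.85%, 21.2% and 8.09% of all genes were called, and with limma-voom 14, 46 and 40, where 5.44%, 55.2% and 35.8% were. Without KI sham 3 and KI sham 4 together the difference gave 5 (4.87% of all genes). A covariate for ribosomal protein genes left 0 in KI. Without the 3 libraries rich in genes resembling ribosomal RNA the counts were 0 in KI and 7 in the difference, without KI sham 4 and KA sham 1 together 27 and 6 (33.6% and 3.07% of all genes), and without KI sham 4 and KA sham 3 together 22 and 5 (29.6% and 2.6%), all 3 settings chosen after seeing the data. Leaving out 1 library at a time gave 0 to 24 in KI and 0 to 26 in the difference. Of all genes, 0.0675% to 32.3% and 0.417% to 6.73% were called in those fits. RLE scaling, both other filters and each model fitted alone stayed within 1.5 times the counts where they could be run, and between the shams every setting gave 0. Like counts did not mean like genes: with each model fitted alone KI gave 9 members, of which only 6 were among the 13. That was 14.1%, against 5.85% of all genes. The models fitted alone give no value for the 2 contrasts that need both, and the block gives none between the shams. Among the values of named genes, 25 called ones kept their sign in every setting, and uncalled ones changed sign 13 times in KA, 16 in KI, 11 in the difference and 47 between the shams. KA rests on 3 libraries.

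With the replicate number as a block within each model, members called were 0 in KI and 0 in the difference. Over all 13338 genes, 0 were called in KI and 0.0825% in the difference. Same-numbered libraries of a model correlated at -0.17 to 0.01 in their deviations, so they were not alike in them. These few pairs cannot decide whether the numbers pair the libraries.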
